A study of Mus musculus with 17 samples.

Results

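The S100 proteins and the annexins are 2 families of calcium-binding proteins, and their transcripts were followed here in adult mouse liver progenitor cells, in the cells these gave in culture, and in mature liver cells. The members were chosen by name: each non-control probe whose gene name begins with S100 and the letter a, b, g, p or z, or with Anxa and a number. That gave 39 probes for 30 genes, 18 with an S100 name and 12 annexins, among 31693 gene names on the array. The S100 names include S100pbp, which is named for binding S100P and is not itself an S100 protein. All 30 passed the filter on dim probes, which asked for a signal well above background on at least 2 of the 17 arrays and left 25977 genes. S100a6 and Anxa1 were proposed as the markers of the families because of their levels on these same arrays, so their values are given as a description, with no test, and counts of changed members are out of the other 28.

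The study hybridised labelled RNA to 17 single-colour Agilent arrays. All 5 groups came from Foxl1-CRE; RosaYFP mice, in which Cre under the control of Foxl1 switches on a yellow fluorescent reporter, and the labels give offspring of 6 to 10 weeks. The groups were progenitors taken through a hepatocyte differentiation condition (n = 4), progenitors taken through a cholangiocyte differentiation condition (n = 3), primary hepatocytes (n = 4), primary cholangiocytes, which form the lining of bile ducts (n = 2), and undifferentiated progenitor cells (n = 4). The labels do not say that the arrays of a group came from separate animals or cultures, so each p-value measures the spread between these arrays, which may be technical. With 2 arrays, the primary cholangiocytes have little spread of their own, and the fit shares 1 estimate of the spread among all groups.

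S100 proteins are small dimers whose paired EF-hand loops bind calcium. Calcium opens a groove that grips a target protein, and several members pair with one particular annexin. Annexins bind acidic phospholipids at the inner face of the plasma membrane when calcium rises, and they take part in membrane repair, vesicle traffic and the anchoring of the actin cortex. Annexin A2 forms a complex with S100A10 at the cell surface that binds plasminogen, and annexin A1 pairs with S100A11. S100A8 and S100A9 form calprotectin, the abundant calcium-binding protein of neutrophils.

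A value below is the log2 processed intensity of a probe relative to the 75th percentile of its array, so that 0 is the brightness of that percentile and a step of 1 is a factor of 2. Probes differ in brightness for the same amount of RNA, so values are compared between groups for 1 gene and not between genes. The 75th percentile of intensity was lower in primary hepatocytes, at 544 to 983, than on the other 13 arrays, at 1741 to 2848. The dimmest value well above background lay between -7.76 and -5.62, depending on the array. Hepatocyte markers averaged 7.89 to 8.32 on the arrays of primary hepatocytes, and biliary markers averaged 2.08 to 2.44 in primary cholangiocytes and -4.86 to -4.22 in primary hepatocytes. In the hepatocyte condition the hepatocyte markers averaged 3.79 and 3.53 on replicates 1 and 3 and -1.88 and -2.42 on replicates 2 and 4, against -0.27, -0.43, -2.43 and -5.24 in undifferentiated cells. Anxa3 was at 3.27 and 3.60 on replicates 1 and 3 of the hepatocyte condition and at 4.36 and 4.49 on replicates 2 and 4, and Anxa1 was at 5.61 and 4.91 on replicates 1 and 3 and at 6.01 and 6.27 on replicates 2 and 4. Other members differed in this. S100a3, S100a4 and S100a5 were higher on replicates 1 and 3 than on replicates 2 and 4, at values given below. S100a6, S100a10 and S100a11 did not split by these replicates. In primary hepatocytes the endothelial markers averaged -2.16 to -1.54 and the red blood cell markers -0.84 to -0.44. The leukocyte and Kupffer markers averaged -2.80 to -2.21 there. Each of these lists lay above its values on every other array. The part of these markers in the results below was not tested. In material of many cells, fewer cells of a type and less RNA per cell cannot be told apart.

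S100a6, or calcyclin, binds the ubiquitin-ligase adaptor CacyBP and is abundant in dividing and epithelial cells. Its values were 7.38, 7.49, 7.59 and 7.66 in the hepatocyte condition, 7.98, 7.78 and 8.07 under the cholangiocyte condition, -3.92, -4.04, -4.66 and -4.59 in primary hepatocytes, 7.37 and 7.46 in primary cholangiocytes, and 7.61, 7.85, 8.0 and 7.68 in undifferentiated cells. The 4 primary hepatocyte arrays stood apart from the other 13, which lay between 7.37 and 8.07. The means, from the highest, ran 7.94 ± 0.15 in the cholangiocyte condition (SD, n = 3), 7.79 ± 0.17 in undifferentiated cells (n = 4), 7.53 ± 0.12 in the hepatocyte condition (n = 4), 7.41 ± 0.07 in primary cholangiocytes (n = 2) and -4.30 ± 0.37 in primary hepatocytes (n = 4). Among the first 4 groups, neighbours in that order overlapped in their ranges. The ranges did not overlap between the cholangiocyte condition and either the hepatocyte condition or primary cholangiocytes, nor between primary cholangiocytes and undifferentiated cells. The difference of the hepatocyte condition minus primary hepatocytes was 11.83 ± 0.18 (SE).

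Anxa1, a phospholipid-binding protein best known as an anti-inflammatory mediator induced by glucocorticoids, was likewise low in primary hepatocytes. It had 5.61, 6.01, 4.91 and 6.27 in the hepatocyte condition, 5.10, 5.98 and 6.43 under the cholangiocyte condition, -4.14, -2.73, -3.78 and -3.68 in primary hepatocytes, 6.47 and 7.06 in primary cholangiocytes, and 6.15, 6.33, 6.81 and 6.50 in undifferentiated cells. The hepatocyte and cholangiocyte conditions overlapped, and the arrays of primary cholangiocytes lay above both. The difference of the hepatocyte condition minus primary hepatocytes was 9.28 ± 0.37 (SE). A second Anxa1 probe, in another part of the transcript, gave 9.61 for the same difference.

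The S100 genes are close relatives, and their probes are set side by side to show how far they share sequence. The probes below are those of S100a6, S100a4, S100a1 and S100a8, followed by the second of the Anxa1 probes and by a probe of Anxa3. All are 60 bases long and read here 5′ to 3′, as deposited. Capitals mark the longest run that a probe shares with the S100a6 probe, and in S100a6 itself the bases that lie in the runs shared with S100a4 or S100a1.
S100a6: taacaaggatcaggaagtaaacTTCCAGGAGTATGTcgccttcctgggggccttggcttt
S100a4: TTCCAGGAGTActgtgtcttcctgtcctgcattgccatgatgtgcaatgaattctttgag
S100a1: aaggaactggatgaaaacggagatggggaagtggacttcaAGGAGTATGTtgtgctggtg
S100a8: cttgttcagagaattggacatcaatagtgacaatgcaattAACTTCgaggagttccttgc
Anxa1 (second probe): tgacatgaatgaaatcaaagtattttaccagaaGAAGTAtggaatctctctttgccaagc
Anxa3: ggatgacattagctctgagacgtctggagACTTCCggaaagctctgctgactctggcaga
The shared run was 11 bases long in S100a4, 10 in S100a1 and 6 in S100a8. Over all 732 pairs of probes of different members, the best ungapped match on either strand, with an overlap of at least 30 bases, covered 33 of 60 bases (Anxa3 and Anxa11), and the median was 22. S100a6 and S100a1 matched over 31 bases. Whether a probe also reads the transcript of another member was not tested.

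**Figure D1:**
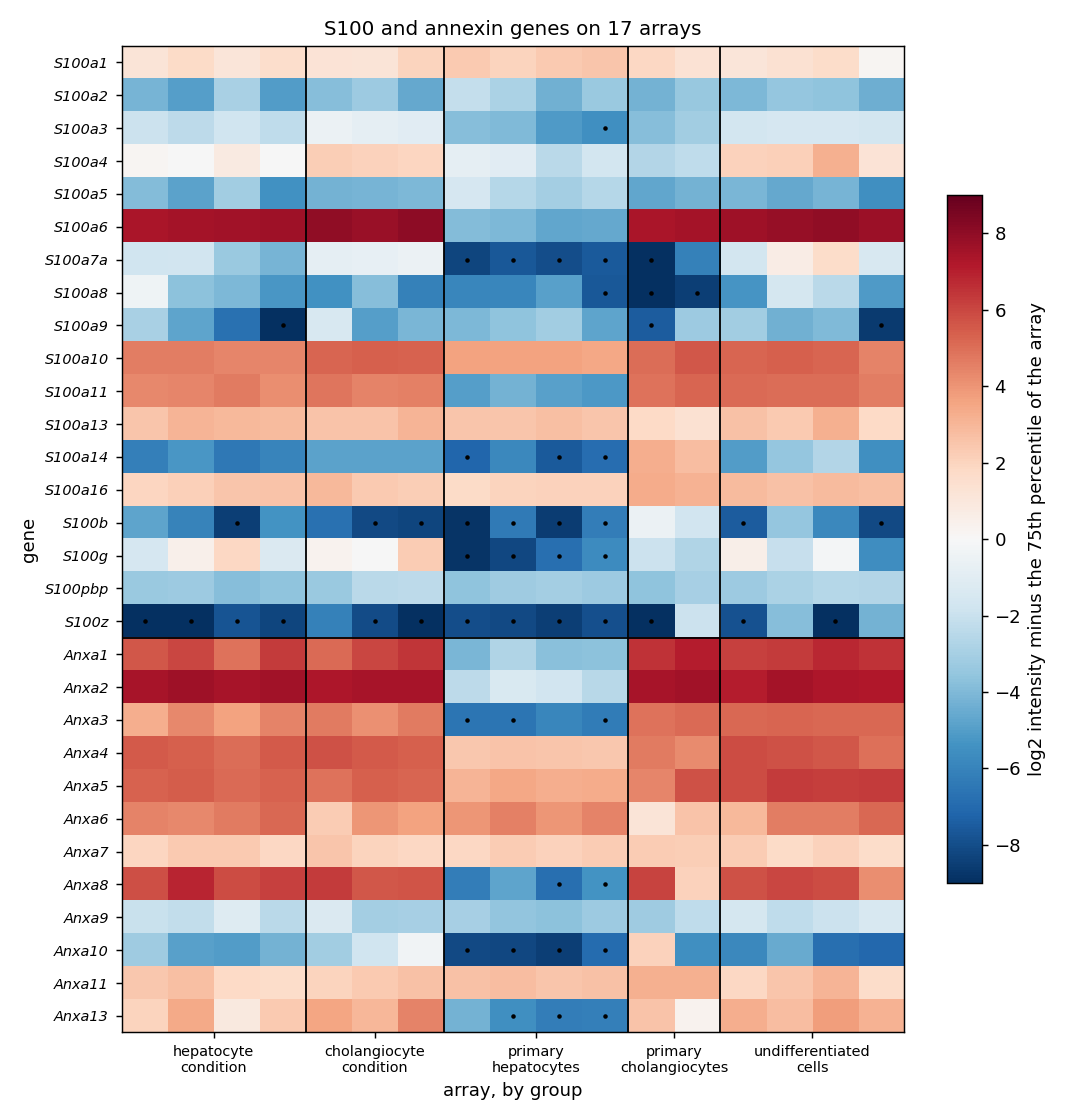
Values of the 30 members (rows) on the 17 arrays (columns, grouped), as log2 intensity minus the 75th percentile of the array. Black dots mark values that were not well above background. The 4 columns of primary hepatocytes are blue for S100a6, S100a11 and Anxa1 to Anxa3, which are red on the other 13 arrays.

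The first comparison asked how cells from the hepatocyte condition differ from the primary hepatocytes they are meant to resemble. Of the 28 members counted, 15 were higher in the hepatocyte condition and 2 were lower at a Benjamini-Hochberg adjusted p under 0.05 (limma, adjusted over all 25977 genes). Of all genes, 26.0% were higher and 33.7% lower in this comparison. The median difference of the members was 1.39, against -0.33 for all genes. Among the 11 annexins counted, 8 were higher and 0 lower, with a median of 2.90, and of the 17 counted genes with an S100 name, 7 were higher and 2 lower, with a median of 0.89. Each of the 17 called members kept its direction within each of the 3 slides that held both groups. The same arrays gave the calls, so this is a description and not further support. The split of calls depends on the processing: normexp background correction gave 12 higher and 4 lower members, and quantile normalization 17 higher and 1 lower.

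The differences of Anxa2 and S100a11, of which S100A11 is the partner of annexin A1, were among the large ones. Anxa2 had 7.40, 7.59, 7.44 and 7.57 in the hepatocyte condition, against -2.35, -1.34, -1.72 and -2.47 in primary hepatocytes, a difference of 9.47 ± 0.21 (SE, adjusted p = 2.55e-13). S100a11 had 4.30, 4.37, 4.65 and 4.17 in the hepatocyte condition, against -4.94, -4.28, -4.92 and -5.18 in primary hepatocytes, a difference of 9.20 ± 0.20 (adjusted p = 1.89e-13). Neither gene's groups came near each other. S100a10, the partner of annexin A2, differed far less than Anxa2: it had 4.63, 4.58, 4.42 and 4.37 in the hepatocyte condition, against 3.59, 3.66, 3.64 and 3.49 in primary hepatocytes. Its difference was 0.91 ± 0.20 (adjusted p = 0.00117), with no overlap. Of all genes, 56.3% had no overlap between these groups. Across the 17 arrays Pearson's r was 0.849 between S100a10 and Anxa2 and 0.992 between S100a11 and Anxa1, as a description over arrays that share their groups.

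Anxa3, Anxa8 and Anxa13 were bright in culture and at the edge of detection in primary hepatocytes. Anxa3, a phospholipid binder known from neutrophils and from several cancers, had 3.27, 4.36, 3.60 and 4.49 in the hepatocyte condition, against -6.60, -6.59, -5.90 and -6.30 in primary hepatocytes, where 1 of 4 arrays was well above background. Its difference was 10.28 ± 0.26 (SE, adjusted p = 9.48e-13). Anxa8, an epithelial annexin, averaged 6.16 ± 0.48 in the hepatocyte condition and -5.78 ± 0.90 in primary hepatocytes (SD, n = 4 each; 2 of 4 primary arrays well above background), a difference of 11.94 ± 0.71 (SE, adjusted p = 4.85e-09). A second Anxa8 probe gave 7.99 (adjusted p over all probes = 2.53e-07), so the direction held and the size did not. Anxa13, a lipid-anchored annexin of gut and kidney epithelium, averaged 2.17 ± 1.03 in the hepatocyte condition and -5.52 ± 0.89 in primary hepatocytes, a difference of 7.69 ± 0.60 (SE, adjusted p = 8.49e-08), with 1 of 4 primary arrays well above background. These sizes depend on how background is taken off: with normexp the differences were 7.17 for Anxa3, 9.15 for Anxa8, 5.11 for Anxa13, 7.36 for S100a11 and 10.30 for S100a6, while Anxa2 kept 9.12.

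Anxa4, Anxa5 and Anxa9 were well above background on all 4 primary hepatocyte arrays and were higher in the hepatocyte condition by smaller amounts. Anxa4, which is found in epithelia and binds membranes near secretory vesicles, had 5.53, 5.41, 5.04 and 5.54 in the hepatocyte condition, against 2.41, 2.59, 2.47 and 2.45 in primary hepatocytes, a 7.44-fold difference (adjusted p = 1.92e-08). Anxa5, the widely expressed annexin used as a probe for phosphatidylserine on dying cells, had 5.30, 5.45, 5.11 and 5.28 in the hepatocyte condition, against 3.08, 3.48, 3.24 and 3.36 in primary hepatocytes, a 3.98-fold difference (adjusted p = 6.23e-06). Both genes were well separated between the groups. Anxa9, whose calcium-binding sites are degenerate, was 2.70-fold higher (adjusted p = 0.00609). Anxa6, Anxa7 and Anxa11 did not pass, with differences of 0.42 ± 0.48, -0.01 ± 0.20 and -0.47 ± 0.30 (SE). A second, dimmer Anxa11 probe differed by -1.28 in the hepatocyte condition (adjusted p over all probes = 0.0162).

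No primary hepatocyte array gave a signal well above background for S100g, S100a7a or Anxa10, so their differences are bounds. The adjusted p beside a bound, here and below, belongs to the unbounded difference. S100g, the calbindin of intestine and placenta that carries calcium through the cytosol, was at least 62.0-fold higher in the hepatocyte condition (adjusted p = 0.000134). S100a7a, a psoriasin relative of the skin, was higher by a factor of at least 10.1 (adjusted p = 6.85e-05). For Anxa10, an annexin of stomach epithelium, the factor was at least 3.34 (adjusted p = 0.0201), and its call was lost without replicate 1 of the hepatocyte condition, at adjusted p = 0.0552. Neither S100a7a nor Anxa10 passed with normexp, at adjusted p = 0.144 and 0.93. S100a8 passed at adjusted p = 0.0385 with a difference of 2.70 ± 1.05 (SE), but its groups overlapped, at -0.40, -3.67, -4.07 and -5.21 in the hepatocyte condition and -5.84, -5.84, -4.86 and -7.60 in primary hepatocytes, and it lost the call under 8 of 28 alternatives. S100a9, its partner in calprotectin, did not pass, at -2.08 ± 1.47. S100a8 and S100a9 correlated at r = 0.178 over the 17 arrays.

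S100a1 and S100a5 ran the other way. S100a1, a calcium sensor known from heart and skeletal muscle, had 1.17, 1.72, 1.1 and 1.57 in the hepatocyte condition, against 2.36, 2.0, 2.32 and 2.48 in primary hepatocytes, and was lower by a factor of 1.87 (adjusted p = 0.0185). S100a5 had -3.90, -4.84, -3.15 and -5.45 in the hepatocyte condition, against -1.48, -2.54, -3.08 and -2.59 in primary hepatocytes, and was lower by a factor of 3.77 (adjusted p = 0.00293). Neither gene's groups overlapped, and for S100a5 the gap was narrow. S100a1 lost its call with scaling to the median and with quantile normalization, and when replicate 3 of the hepatocyte condition was left out, and a second S100a1 probe gave -1.22 (adjusted p over all probes = 0.00264). S100a13, S100a14, S100a16, S100a2, S100b, S100pbp and S100z did not pass.

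**Figure D2:**
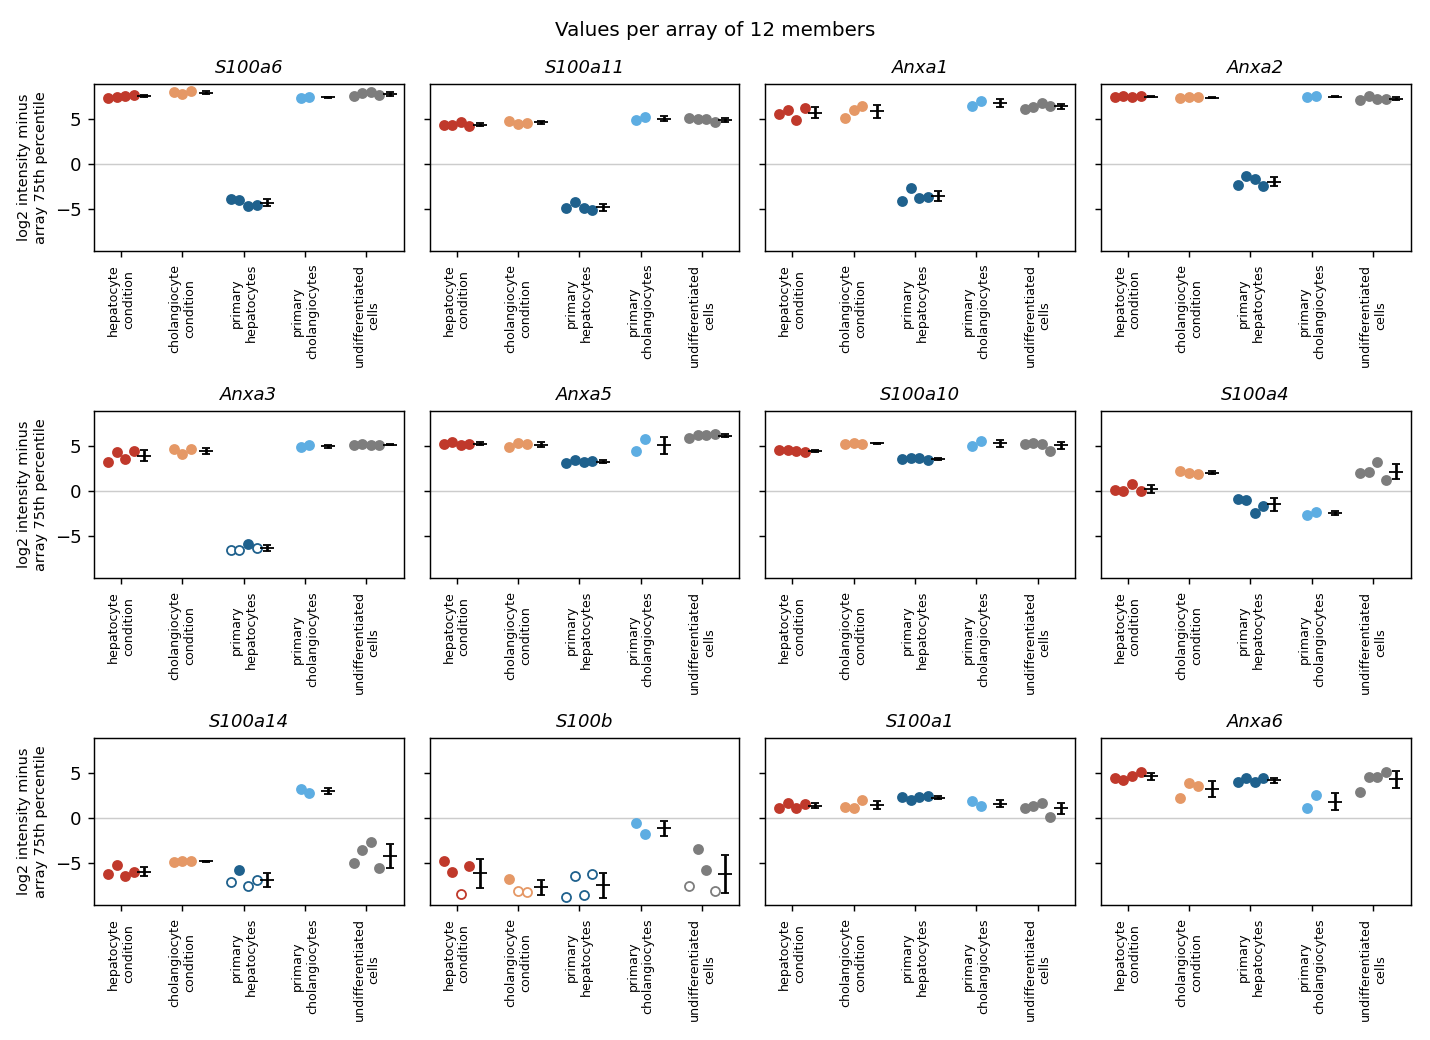
Values of 12 members per array, as log2 intensity minus the 75th percentile of the array. Filled circles were well above background and open circles were not, and the bar beside each group is the mean ± SD. S100a6, S100a11 and Anxa1 to Anxa3 are low in primary hepatocytes, S100a14 and S100b are high in primary cholangiocytes, and Anxa6 and S100a1 show neither pattern.

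The second comparison set the cholangiocyte condition against primary cholangiocytes. Of 28 members, 5 were higher and 2 lower, where 11.9% of all genes were higher and 7.64% lower. The members' median difference was 0.17, as was that of all genes, so by count and median the families were near the background. Anxa2 had 7.30, 7.44 and 7.41 in the cholangiocyte condition, against 7.44 and 7.56 in primary cholangiocytes, and S100a10 had 5.24, 5.37 and 5.29 in the cholangiocyte condition, against 5.02 and 5.59 in primary cholangiocytes. Their differences were -0.12 ± 0.27 and -0.01 ± 0.25 (SE), and neither passed. S100a6 differed by 0.53 ± 0.23 and Anxa1 by -0.93 ± 0.47 (SE), with no test.

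S100a14 and S100b were the members lower in the cholangiocyte condition. S100a14, an epithelial S100 protein, had -4.84, -4.80 and -4.80 in the cholangiocyte condition, against 3.26 and 2.81 in primary cholangiocytes, a difference of -7.85 ± 0.71 (SE, adjusted p = 5.7e-06). S100b, best known from glia and nerve sheath cells, had -6.72, -8.15 and -8.27 in the cholangiocyte condition, against -0.53 and -1.72 in primary cholangiocytes, a difference of -6.59 ± 1.32 (SE, adjusted p = 0.0033). One of the 3 S100b values in the cholangiocyte condition was well above background. Both genes kept their direction on the 1 slide that held both groups, whose arrays also gave the calls.

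The members higher in the cholangiocyte condition were S100a4, S100a3, S100a7a, Anxa4 and S100a13. S100a4, also called metastasin or fibroblast-specific protein, had 2.21, 2.05 and 1.91 in the cholangiocyte condition, against -2.63 and -2.31 in primary cholangiocytes, a 23.0-fold difference (adjusted p = 3.76e-05). S100a3, a hair-follicle protein, was 6.55-fold higher (adjusted p = 0.000549). S100a7a was higher by 6.89 ± 1.02 (SE, adjusted p = 0.00036), with 1 of 2 primary arrays well above background. Anxa4 and S100a13 were 2.08-fold and 2.21-fold higher (adjusted p = 0.00935 and 0.024), and both lost the call when replicate 4 of the primary cholangiocytes was left out, as well as in the authors' deposited table, among other settings. Quantile normalization changed the split to 4 higher and 3 lower.

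Anxa10 and Anxa8 showed how far the 2 primary cholangiocyte arrays could differ. Anxa10 had -3.12, -1.82 and -0.32 in the cholangiocyte condition, against 2.07 and -5.55 in primary cholangiocytes, and Anxa8 had 6.31, 5.57 and 5.68 in the cholangiocyte condition, against 6.08 and 2.08 in primary cholangiocytes. Neither passed. The Anxa10 difference of -0.01 turned to 3.80 (adjusted p = 0.037) without replicate 3 of the primary cholangiocytes and to -3.82 (adjusted p = 0.0306) without replicate 4. In these leave-one-out fits the lone primary array is taken to vary like the other groups.

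The third comparison asked whether the gap between culture and primary cells differs between the lineages. The difference of differences, hepatocyte lineage minus cholangiocyte lineage, was positive for 11 of 28 members and negative for 2, where 15.5% of all genes were positive and 22.2% negative. The median was 0.97 for the members and -0.44 for all genes. The highest by this scaling were Anxa3 at 10.78 ± 0.43, Anxa8 at 10.17 ± 1.15, S100a11 at 9.63 ± 0.33 and Anxa2 at 9.59 ± 0.35 (SE, adjusted p = 5.86e-10, 1.1e-05, 1.24e-10 and 2.1e-10). With normexp these were 7.70, 7.40, 7.77 and 9.28, in another order, and Anxa3 and Anxa8 were well above background on 1 and 2 of 4 primary hepatocyte arrays. For S100a6 and Anxa1 it was 11.30 ± 0.29 and 10.21 ± 0.60 (SE), with no test. Normexp gave 11 positive and 6 negative. S100a4 and S100a5 were negative, at -2.81 ± 0.64 and -2.21 ± 0.76 (SE, adjusted p = 0.0034 and 0.0349), and S100a5 lost its call under 9 of 27 alternatives. S100a4 was higher in culture than in primary cells in both lineages, and more so in the cholangiocyte lineage, but the second S100a4 probe gave 2.56 for this difference of differences (adjusted p over all probes = 0.0975), the opposite sign.

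**Figure D3:**
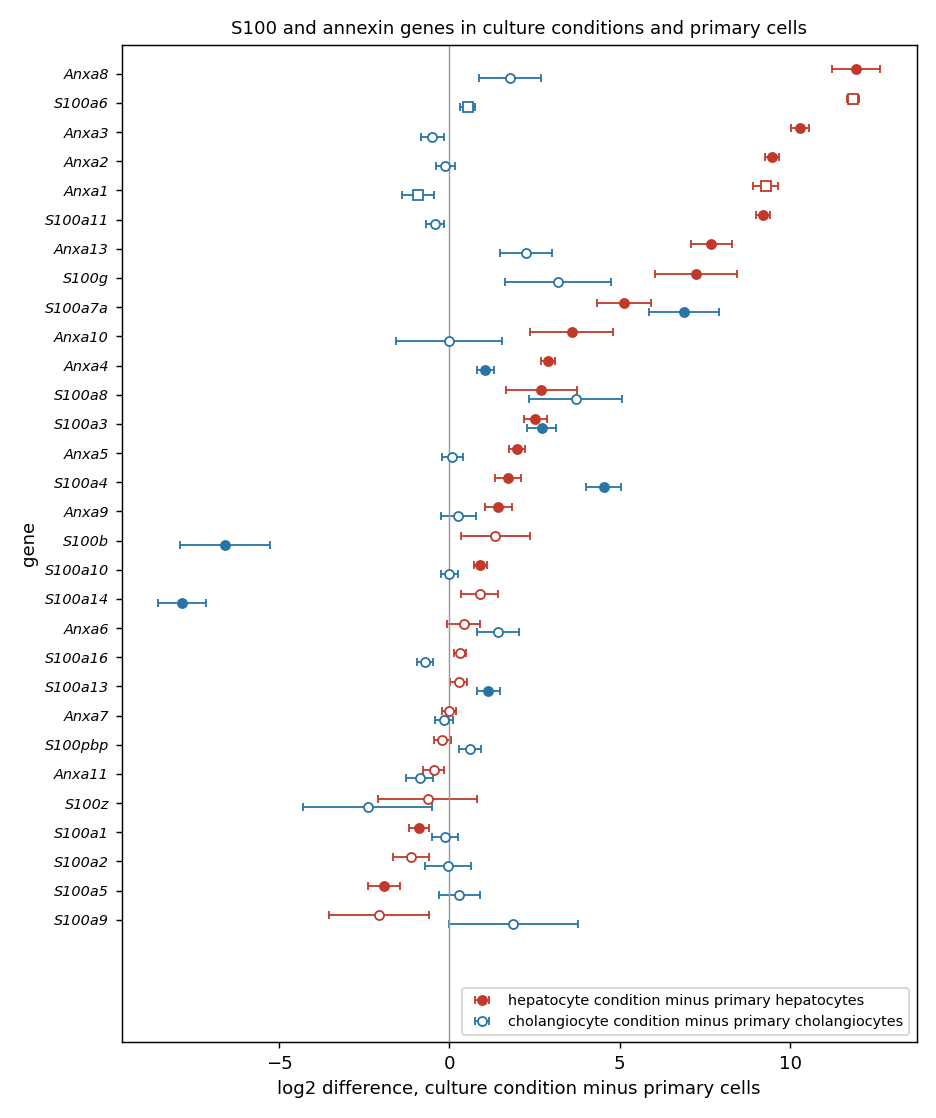
Log2 difference of each culture condition minus its primary cells (points) with its SE (bars), in red for the hepatocyte lineage and in blue for the cholangiocyte lineage. Filled points passed at an adjusted p under 0.05, open circles did not, and squares (S100a6, Anxa1) were not tested. Red points reach 11.94 for Anxa8, and blue points lie between -7.85 for S100a14 and 6.89 for S100a7a.

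Primary hepatocytes were set against primary cholangiocytes to see how the families differ between the mature cell types. This comparison shares the primary hepatocytes with the first one, so the 2 sets of values are not independent. Primary hepatocytes were lower in 14 of 28 members and higher in 3, where 21.6% of all genes were lower and 28.0% higher. The median of the members was -1.19, or -0.89 with the genes not well above background at their bounds, against 0.35 for all genes. Normexp gave 13 lower and 5 higher. Primary hepatocytes had the lowest mean of the 5 groups in 17 of the 30 members (56.7%) and in 28.5% of all genes. That count includes S100a6 and Anxa1, which were proposed for their levels on these same arrays, so it is a description. S100a7a, S100b, S100g, S100z and Anxa10 were not well above background on any primary hepatocyte array, nor was S100a8 on either array of primary cholangiocytes. Probes well above background numbered 23905 to 27655 on the arrays of primary hepatocytes and 29257 and 26809 on those of primary cholangiocytes.

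The differences of primary hepatocytes minus primary cholangiocytes were -11.35 ± 0.32 for Anxa3, -9.88 ± 0.67 for S100a14, -9.87 ± 0.25 for S100a11, -9.86 ± 0.86 for Anxa8 and -9.47 ± 0.26 for Anxa2 (SE). Their adjusted p were 5.7e-12, 3.38e-08, 1.97e-12, 4.22e-07 and 3.82e-12. S100a16, a widely expressed S100 protein, had 1.70, 2.02, 2.04 and 2.08 in primary hepatocytes, against 3.33 and 3.11 in primary cholangiocytes, and was lower by a factor of 2.40 (adjusted p = 0.000419). S100b was at least 31.0-fold lower in primary hepatocytes (adjusted p = 0.000748). Each of these genes was separated between the groups on every array, as were 60.4% of all genes.

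Anxa6, S100a13 and S100a5 were higher in primary hepatocytes. Anxa6, a large annexin that takes part in cholesterol and endosome traffic, had 3.99, 4.54, 3.99 and 4.43 in primary hepatocytes, against 1.17 and 2.55 in primary cholangiocytes, a 5.19-fold difference (adjusted p = 0.00377). S100a5 was 4.13-fold higher (adjusted p = 0.00872), and both it and Anxa6 lost the call without replicate 3 of the primary cholangiocytes, at adjusted p of 0.0709 and 0.076. S100a13, which takes part in the release of FGF1, was 1.94-fold higher (adjusted p = 0.0192). It lost its call with scaling to the median, with quantile normalization, without replicate 4 of the primary cholangiocytes and in the authors' deposited table.

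The hepatocyte condition was next set against undifferentiated cells. Arrays of these groups may be paired under crossed replicate numbers, as given at the end, and the fit left such a pairing out. None of 28 members was higher and 5 were lower, where 7.62% of all genes were higher and 7.70% lower, and 9 members (32.1%) had an unadjusted p under 0.05, against 27.6% of all genes. The members' median was -0.28, against 0.07 for all genes. S100a4 had 0.14, -0.02, 0.84 and -0.0025 in the hepatocyte condition, against 2.06, 2.15, 3.21 and 1.25 in undifferentiated cells, a difference of -1.93 ± 0.39 (SE, adjusted p = 0.00478). Anxa3 had 3.27, 4.36, 3.60 and 4.49 in the hepatocyte condition, against 5.15, 5.27, 5.15 and 5.14 in undifferentiated cells, and was lower by a factor of 2.38 (adjusted p = 0.00564). Anxa5 had 5.30, 5.45, 5.11 and 5.28 in the hepatocyte condition, against 5.87, 6.29, 6.22 and 6.33 in undifferentiated cells, and was lower by a factor of 1.85 (adjusted p = 0.0205). For these 3 genes no array of the hepatocyte condition reached any array of undifferentiated cells. Of all genes, 21.0% had no overlap between these groups.

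S100a14 and S100a7a passed narrowly. S100a14 had -6.16, -5.24, -6.45 and -5.97 in the hepatocyte condition, against -5.04, -3.51, -2.61 and -5.49 in undifferentiated cells (adjusted p = 0.0399), and the groups overlapped. S100a7a had -1.76, -1.72, -3.34 and -4.15 in the hepatocyte condition, against -1.66, 0.66, 1.68 and -1.43 in undifferentiated cells (adjusted p = 0.0415). They lost the call under 10 and 13 of 28 alternatives, and the count of 5 fell to 2 without replicate 2 of the undifferentiated cells or without replicate 3 of the hepatocyte condition. It fell to 3 without any 1 of 5 other arrays: replicate 3 of the undifferentiated cells, replicate 4 of the hepatocyte condition, replicates 1 and 2 of the cholangiocyte condition and replicate 4 of the primary hepatocytes. S100a6 and Anxa1 differed by -0.26 ± 0.18 and -0.75 ± 0.37 (SE), with no test.

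In the cholangiocyte condition against undifferentiated cells, 0 of 28 members were called by limma in either direction, where 0.785% of all genes were higher and 0.597% lower, and 4 members (14.3%) had an unadjusted p under 0.05, against 12.8% of all genes. The authors' deposited table also called 0. Anxa5, at 4.89, 5.39 and 5.24 in the cholangiocyte condition, against 5.87, 6.29, 6.22 and 6.33 in undifferentiated cells, came nearest (difference -1.0 ± 0.26, SE, adjusted p = 0.0789), and passed with normexp at adjusted p = 0.0474. Anxa10 was higher by 4.30 ± 1.31 (SE, adjusted p = 0.149) with no overlap. Of all genes, 13.3% had no overlap between these groups. Without replicate 3 or without replicate 4 of the primary cholangiocytes, 2 members passed, 1 higher and 1 lower.

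Between the cultures, the hepatocyte condition was lower than the cholangiocyte condition in 3 of 28 members and higher in 0, where 8.41% of all genes were lower and 6.97% higher. Arrays of these groups too may be paired under crossed replicate numbers, as given at the end, and the fit left such a pairing out. S100a4, at the values given above, differed by -1.82 ± 0.42 (SE, adjusted p = 0.0102). S100a10 had 4.63, 4.58, 4.42 and 4.37 in the hepatocyte condition, against 5.24, 5.37 and 5.29 in the cholangiocyte condition, and was lower by a factor of 1.74 (adjusted p = 0.0202). S100a3 had -1.91, -2.38, -1.76 and -2.27 in the hepatocyte condition, against -0.51, -0.82 and -0.99 in the cholangiocyte condition, and was lower by a factor of 2.48 (adjusted p = 0.0222). The groups did not overlap for any of the 3 genes, nor for 27.8% of all genes. Only S100a4 passed when replicate 2 of the cholangiocyte condition was left out, while the authors' deposited table called 7 members, 1 higher and 6 lower.

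Primary cholangiocytes were higher than undifferentiated cells in 2 of 28 members and lower in 7, where 8.50% of all genes were higher and 10.6% lower. S100a14 and S100b were the higher ones, by 7.2 ± 0.67 and 5.10 ± 1.25 (SE, adjusted p = 6.55e-06 and 0.0113). S100a4 had -2.63 and -2.31 in primary cholangiocytes, against 2.06, 2.15, 3.21 and 1.25 in undifferentiated cells, and was lower by a factor of 24.8 (adjusted p = 1.75e-05). S100a7a differed by -7.39 ± 0.96 (SE, adjusted p = 0.000122) and S100a8 at least 15.4-fold lower (adjusted p = 0.0111). Anxa4, Anxa5, Anxa6 and S100a3 were also lower, by factors of 2.06, 2.13, 5.52 and 3.69 (adjusted p = 0.00736, 0.0175, 0.00905 and 0.00472). Without replicate 3 of the primary cholangiocytes the total was 6 members, against 9 with all arrays, with S100b, S100a8, S100a3, Anxa5 and Anxa6 among the calls lost.

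Among the 9 members with several probes, those of S100a4 differed in direction where 1 of them passed the test. The probe that stands for the gene, printed above, had -1.48 ± 0.70 in primary hepatocytes and -2.47 ± 0.23 in primary cholangiocytes (SD), and the other had -6.62 ± 1.84 in primary hepatocytes, where 1 of 4 arrays was well above background, and -2.32 ± 0.24 in primary cholangiocytes. The difference of primary hepatocytes minus primary cholangiocytes was thus 0.99 ± 0.48 (SE, adjusted p = 0.103) with the first and -4.30 with the second (adjusted p over all probes = 0.000923). For the hepatocyte condition minus primary hepatocytes the probes gave 1.72 ± 0.39 and 7.65, in the same direction. The direction of S100a4 between the primary cell types is therefore not settled on these arrays. The probes of Anxa11 gave -0.58 and 0.44 for the difference between the primary cell types, and those of Anxa7 -0.15 and 0.62, none of which passed.

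By RefSeq's annotation (GRCm38.p6, used for names and order), 16 of the 30 members lie on chromosome 3, and 12 of these follow each other with no other protein-coding gene between them, from S100a1 through S100a13, S100a14, S100a16, S100a3, S100a2, S100a4, S100a5, S100a6, S100a7a and S100a8 to S100a9. Genes that do not code for protein were left out of this order. S100a11 and S100a10 lie side by side in the same order, elsewhere on the chromosome. Over the 17 arrays, Pearson's r between neighbours in this run lay between -0.803 (S100a5 and S100a6) and 0.779 (S100a14 and S100a16), with a median of 0.178 over 11 pairs. It was 0.722 between S100a6 and S100a7a and 0.673 between S100a7a and S100a8, as a description over arrays that share their groups. S100a6 was lowest in primary hepatocytes, while S100a5 beside it was highest there, at -2.42 ± 0.68 (SD, n = 4), against -4.18 ± 0.11 in the cholangiocyte condition (n = 3) and -4.60 ± 0.64 in undifferentiated cells (n = 4). S100a14 was high in primary cholangiocytes while S100a13, beside it, was at its lowest there, at 1.58 ± 0.28 (n = 2).

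**Figure D4:**
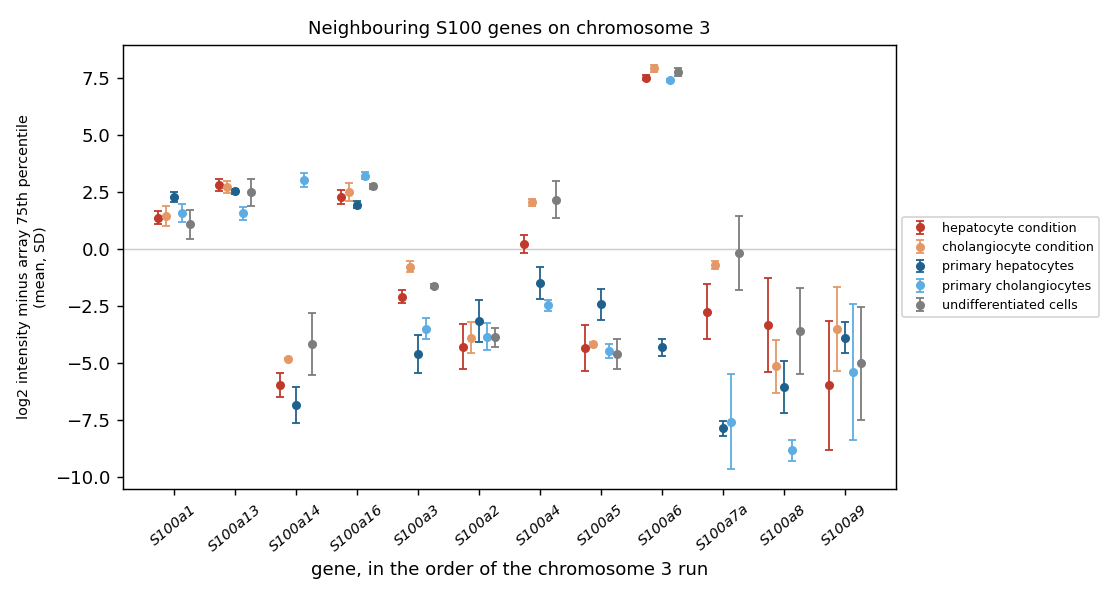
Mean value (points) with SD (bars) of the 12 neighbouring S100 genes on chromosome 3, in gene order, in the 5 groups, as log2 intensity minus the 75th percentile of the array. Values are to be compared between groups within a gene. S100a6 is low in primary hepatocytes and S100a14 is high in primary cholangiocytes.

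The stretch of 250 bases upstream of the start was read for the 24 members that RefSeq's promoter table holds. The motifs below were searched on both strands: TGANTCA, the site of AP-1, and GGAATG, the site of TEAD factors. AP-1 letters stood upstream of 4 of the 24 member genes (16.7%; S100a11, Anxa2, Anxa10 and S100a16), against 7.8% of 27025 genes, and TEAD letters upstream of 4 (16.7%), against 14.4% (Anxa1, S100a3, S100a7a and S100z). Neither motif contains the other. A match is a description of letters, not of a bound site. The upstream stretches of S100a11, Anxa2 and S100a6 are shown, S100a11 and Anxa2 being the members with the highest r with S100a6 (both 0.997), 5′ to 3′ on the strand of the gene, with AP-1 letters in capitals.
S100a11, chr3:93520246-93520495, plus strand: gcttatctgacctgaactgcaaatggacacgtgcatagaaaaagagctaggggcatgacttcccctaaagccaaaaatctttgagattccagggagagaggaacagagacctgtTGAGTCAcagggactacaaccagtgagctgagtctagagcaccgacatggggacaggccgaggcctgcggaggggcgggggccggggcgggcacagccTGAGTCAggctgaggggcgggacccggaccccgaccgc
Anxa2, chr9:69453433-69453682, plus strand: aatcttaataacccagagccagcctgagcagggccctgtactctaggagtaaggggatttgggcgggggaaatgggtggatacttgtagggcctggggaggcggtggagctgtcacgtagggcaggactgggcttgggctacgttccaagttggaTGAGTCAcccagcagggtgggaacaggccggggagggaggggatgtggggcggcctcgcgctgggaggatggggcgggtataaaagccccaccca
S100a6, chr3:90612644-90612893, plus strand: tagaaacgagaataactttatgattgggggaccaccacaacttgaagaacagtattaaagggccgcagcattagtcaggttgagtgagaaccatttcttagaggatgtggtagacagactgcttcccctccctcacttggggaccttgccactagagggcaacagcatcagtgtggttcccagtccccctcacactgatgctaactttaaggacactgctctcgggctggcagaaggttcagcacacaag
S100a11 held 2 AP-1 matches, Anxa2 held 1 and S100a6 held none in this window. Anxa1, whose r with S100a6 was 0.989, held none, while Anxa10 and S100a16, at r of 0.611 and 0.623, held 2 and 1.

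The genes outside the families whose pattern over the 17 arrays was most like that of S100a6 were Gm6560 (r = 0.999), Gm2124 (0.997), Mfge8 (0.997), Plp2 (0.996) and Pkm (0.996), out of 22676 genes ranked. Pkm encodes pyruvate kinase of non-liver tissues, and the files describe Gm6560 and Gm2124 as similar to it. Those most like Anxa1 were Twf2 (0.995), Msln (0.994), Hk1 (0.994), Stx3 (0.993) and Ccn2 (0.993). Among members, Anxa2 and S100a11 were most like S100a6, both at 0.997, and S100a5 and S100a1 ran against it, at -0.803 and -0.709. The arrays share their groups and are not independent points, so these correlations are a description, with no p.

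The wider pathway was followed through lists of other genes. Each list was counted in all 8 comparisons. Only some of these are shown, not the same ones for each list, and others gave other splits. Of 12 proteins that bind S100 proteins or annexins, 6 were higher and 1 lower in the hepatocyte condition than in primary hepatocytes, with a median of 0.59. In that comparison 26.0% of all genes were higher and 33.7% lower, with a median of -0.33. Ahnak, the giant scaffold that annexin A2 and S100A10 hold at the membrane, averaged 6.32 ± 0.36 in the hepatocyte condition and -2.90 ± 0.30 in primary hepatocytes (SD, n = 4 each), a difference of 9.22 ± 0.24 (SE, adjusted p = 1.12e-12). Tgm2, a transglutaminase, and Myh9, non-muscle myosin IIA and a target of S100A4, were higher by 2.43 ± 0.29 and 2.37 ± 0.17 (SE, adjusted p = 6.87e-06 and 5.09e-08). Pdcd6, or ALG-2, differed by -0.36 ± 0.15 (SE, adjusted p = 0.0475). Capn1, a calpain, and Gca did not pass, at 0.44 ± 0.27 and 0.27 ± 0.23. In the hepatocyte condition against undifferentiated cells, Cacybp, the S100A6-binding protein, differed by -1.42 ± 0.21 (adjusted p = 0.000586) and Plgrkt, a plasminogen receptor, by -1.91 ± 0.21 (adjusted p = 6.04e-05).

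Of 13 tested genes of membrane repair, 8 were higher and 0 lower in the hepatocyte condition than in primary hepatocytes, with a median of 0.98, against 26.0% and 33.7% of all genes and a median of -0.33. Primary hepatocytes against primary cholangiocytes gave 9 lower and 0 higher, with a median of -1.62, against 21.6% and 28.0% of all genes and a median of 0.35. Cavin1 and Cavin2, coat proteins of caveolae, were higher in the hepatocyte condition than in primary hepatocytes by 6.91 ± 0.26 and 5.01 ± 0.42 (SE, adjusted p = 5.46e-11 and 2.08e-07). Ehd2, which pins caveolae to the membrane, was at least 89.1-fold higher (adjusted p = 3.74e-08). Dysf, the repair protein dysferlin, and Sdc4, a syndecan, did not pass, at 0.98 ± 0.74 and -0.68 ± 0.44.

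Of 10 genes of plasminogen activation, 5 were higher and 3 lower in the hepatocyte condition than in primary hepatocytes, against 26.0% and 33.7% of all genes, so the share lower is near the background. The higher ones included Plaur, the urokinase receptor, by 8.26 ± 0.30 (adjusted p = 2.81e-11). Plat, tissue plasminogen activator, was at least 58.2-fold higher (adjusted p = 3.58e-09). The lower ones were Plg, plasminogen itself, at -10.41 ± 2.18, Klkb1 at -9.26 ± 0.73 and Serpinf2 at -6.70 ± 1.90 (SE, adjusted p = 0.000928, 1.07e-07 and 0.00763), all secreted by the liver. Plg was well above background on 2 of 4 arrays of the hepatocyte condition, with an SD of 6.58 there.

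Of 8 tested receptors for secreted S100 proteins and annexin A1, 3 were higher in the hepatocyte condition than in undifferentiated cells and 0 lower, with a median of 1.02, against 7.62% and 7.70% of all genes and a median of 0.07. They were Cd36, a scavenger receptor, by 6.02 ± 1.24, Ptprj by 1.28 ± 0.22 and Bsg, or basigin, by 1.1 ± 0.18 (SE, adjusted p = 0.00494, 0.00159 and 0.00137). In the cholangiocyte condition against primary cholangiocytes, 0 of the 8 receptors were higher and 3 lower, against 11.9% and 7.64% of all genes. Of 16 tested neighbours in the epidermal differentiation complex, the gene cluster on chromosome 3 that holds the S100 run, 5 were lower and 0 higher in the hepatocyte condition than in the cholangiocyte condition, against 8.41% and 6.97% of all genes. Sprr1a, Sprr1b and Sprr2h, small proline-rich proteins, differed by -6.32 ± 0.92, -5.02 ± 0.45 and -4.58 ± 1.11 (SE, adjusted p = 0.000524, 1.17e-05 and 0.0123). In the hepatocyte condition against primary hepatocytes, 4 of the 16 neighbours were higher and 2 lower, against 26.0% and 33.7% of all genes. Of 19 tested EF-hand proteins outside the S100 family, 11 were higher and 3 lower in the hepatocyte condition than in primary hepatocytes, with a median of 0.69, against 26.0% and 33.7% of all genes and a median of -0.33. Calml4, a calmodulin-like protein, was higher by a factor of at least 6.73 (adjusted p = 0.0295) and Hpcal1, a relative of hippocalcin, by 2.90 ± 0.22 (SE, adjusted p = 7.22e-08). Pvalb, parvalbumin, differed by -3.09 ± 0.40 (SE, adjusted p = 1.4e-05).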

How the data were processed

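RNA from 5 groups was hybridised to 17 single-colour arrays, scanned and quantified by Agilent Feature Extraction 10.5.1.1, per the file headers (9.53 per the submitters' processing notes). The deposited intensity is that program's processed signal, background-subtracted and not scaled between arrays. The authors' deposited table of comparisons holds signed fold changes as a score and a false discovery rate in percent. How it was made is not given in the sources used here, and it served as an alternative.

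Here, spots of a probe were averaged, 135 probes with an outlier spot were left out, and no spot was saturated. Intensities were taken as log2 minus the 75th percentile of the array. A probe stayed if well above background on at least 2 arrays, and the brightest probe stood for a gene. Names were updated with RefSeq (GRCm38.p6). Group means were fitted to all arrays with limma 3.58.1 (lmFit, eBayes) in R 4.3.3, two-sided, with Benjamini-Hochberg adjustment over 25977 genes. The fit was tested on simulated data. Where all arrays of a group were too dim to be well above background, a gene has a bound, its dim arrays set to the dimmest value well above background or to its own if higher. Its p-value comes from the fit to the values as measured, and does not test the bound. Members, lists and tests were chosen with earlier results of these data known. Any member may be named, list genes by size. The alternatives were normexp with an offset of 50, median and quantile scaling, the filter, the probe rule, slide and replicate blocks, the groups fitted, each array left out, and the authors' table. In the cholangiocyte condition and undifferentiated cells, the deviations of arrays from their group means correlated at 0.281 to 0.385 within the 3 same-number pairs and at -0.286 to 0.0285 at different numbers, so the numbers were taken to pair them, from these correlations and not from the labels. A block on these pairs was added after seeing the data. The number of arrays limits the precision. Figures were drawn with matplotlib 3.10.9.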

Additional observations from a re-analysis of the deposited data

Results flagged for a closer look

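Among the 90 sets of 4 arrays (30 members in 3 groups), 3 held an array far from the others, where chance alone would mark about 1 in 20. Anxa3 in replicate 2 of the undifferentiated cells had 5.27, against 5.14 to 5.15 on the other 3 arrays, a gap that is small in size because the others lie so close together. Anxa8 in replicate 4 of the undifferentiated cells had 4.20, against 5.73 to 6.00 on the other 3. S100a16 in replicate 1 of the primary hepatocytes had 1.70, against 2.02 to 2.08 on the other 3.

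For 13 members the gap between culture and primary cells differed between the lineages by the test of the difference itself (limma, adjusted over all genes). The difference of differences, hepatocyte lineage minus cholangiocyte lineage, was 10.78 for Anxa3, 10.17 for Anxa8, 9.63 for S100a11, 9.59 for Anxa2, 8.74 for S100a14, 7.94 for S100b and 5.45 for Anxa13. S100a14 differed by 0.89 in the hepatocyte lineage and by -7.85 in the cholangiocyte lineage, and S100b by 1.35 and -6.59. Smaller positive values were 1.91 for Anxa5, 1.84 for Anxa4, 1.02 for S100a16 and 0.91 for S100a10. The values were -2.81 for S100a4 and -2.21 for S100a5.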

How the results depend on the processing

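Most calls held. Among the single-member comparisons, 6054 kept their side of the threshold under an alternative, 106 lost the call, 95 gained one and 4 turned. Turned means a change of sign with a call in the main or the alternative fit. Changes of sign without a call in either fit are among the 6054. With normexp, S100a4 turned to -1.18 and S100a3 to 0.13 in primary hepatocytes minus primary cholangiocytes. With the mean of a gene's probes S100a4 turned to -1.65, and Anxa10 turned to 3.80 in the cholangiocyte condition minus primary cholangiocytes without replicate 3 of the primary cholangiocytes (-3.82 without replicate 4). Counts that moved by over 1.5 times were as follows. Fitted to the compared groups alone, 3 members (main 5) were called for the hepatocyte condition and 4 (main 9) for primary cholangiocytes, both against undifferentiated cells. Fewer arrays enter these fits, and the cause of the lower counts was not tested. Normexp gave 1 (main 0) for the cholangiocyte condition against undifferentiated cells, and 7 (main 3) were called between the conditions in the authors' deposited table; the cause was not tested. Leaving out each array in turn gave 2 to 6 and 0 to 2 called members for the hepatocyte and cholangiocyte conditions against undifferentiated cells, 15 to 18 and 6 to 10 against their primary cells, 1 to 4 between the conditions, 14 to 18 between the primary types, 6 to 10 for primary cholangiocytes against undifferentiated cells, and 11 to 14 for the difference of differences. In the hepatocyte condition minus primary hepatocytes the median of all genes was -0.33, but -0.15 with median scaling, -0.01 with quantile and -0.68 with normexp, and the genes higher and lower numbered 6745 and 8754, but 5475 and 14230 with normexp. S100a6 kept a difference of 10.30 there with normexp. A replicate block on the 3 same-number pairs of the cholangiocyte condition and undifferentiated cells, chosen after seeing the data, gave 0 called members and changed no call (Anxa5 -0.95, adjusted p = 0.133). Between the other groups, the same number was not enough to pair the arrays. For the hepatocyte condition and undifferentiated cells, 1 of 4 same-number pairs passed 0.1, replicate 4 with replicate 4 at 0.519. Pairs of crossed numbers reached 0.384 (undifferentiated replicate 1 with hepatocyte condition replicate 3), 0.442 (2 with 1) and 0.351 (3 with 2). The remaining pairs of these groups were negative. These arrays may therefore be paired under crossed numbers, and a block on such pairs was not fitted. Between the 2 conditions the same-number pairs lay at -0.231 to -0.0765. Crossed numbers there reached 0.327 (hepatocyte condition replicate 2 with cholangiocyte condition replicate 3, sharing a slide), 0.211 (1 with 2), 0.143 (3 with 2, sharing a slide) and 0.11 (3 with 1). A pairing under crossed numbers is possible there too, and no block on it was fitted. A replicate block over all arrays also joins arrays that the number did not pair, so it does not test crossed pairs. With it the counts were 4, 0, 17, 8, 3, 17, 10 and 11, in the order of the leave-one-out ranges. With the slide block they were 6, 0, 18, 7, 3, 19, 9 and 13. Members at the edge of detection in primary hepatocytes have sizes that depend on the background step.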
